A study of Mus musculus with 16 samples.

Results

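The 7 genes described here encode the Fos and Jun families of the AP-1 transcription factor, namely Fos, Fosb, Fosl1, Fosl2, Jun, Junb and Jund. They were taken by name, by membership of the families and with earlier results of these data known, from 21938 protein-coding genes on mouse chromosomes 1 to 19, X and Y. For each gene, binding sites were collected within 3 kb of a transcription start site (TSS), in the gene body and within 50 kb of a TSS. The data were chromatin immunoprecipitation sequencing (ChIP-seq) of a mouse model of clear cell sarcoma, a soft tissue tumour defined by the EWSR1::ATF1 fusion (EA1). Antibodies were to V5, the tag on the fusion, to RNAPOL2, which the study describes as phosphorylated RNA polymerase II, and to H3K27ac. H3K27ac is a histone mark of active promoters and enhancers. Each antibody was applied to 4 labelled tumour samples, and 4 further samples were Input chromatin. Every sample, Input included, had the genotype EWSR1::ATF1 and was labelled as tumour, so normal tissue and tumours without the fusion form no group. The fusion was the human type 1 form, carried as V5-tagged complementary DNA with enhanced green fluorescent protein behind it, on a 129/SvJ and C57Bl/6 background. It was transcribed from the Rosa26 promoter once purified TATCre had been injected into the hindlimb of 4-week-old mice. Expression was therefore set by Rosa26 and not by the EWSR1 promoter, and it began in whichever cells took up the recombinase at the injected site.

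A single peak list per antibody was analysed, with 10665 V5 peaks, 20375 RNAPOL2 peaks and 27552 H3K27ac peaks. No value belonged to a single tumour, so no replicate error could be given for any score, count or share, and no test between conditions was made. The lists held no read counts and the depth behind each peak is unknown. Each peak carried a score set by the authors, on a scale that the sources used here do not give. Scores were therefore read by rank and percentile inside each list. Strong and weak refer below to the order of these scores and not to measured occupancy. The study also describes a larger set of V5 sites than the list analysed here. A gene with no peak is therefore one at which none entered the list, and V5 shares refer to this list alone.

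AP-1 factors are pairs of basic leucine zipper (bZIP) proteins in which a Jun protein binds a Fos protein or another Jun protein. They recognise the AP1 motif TGAGTCA and act in growth, wound and stress responses. ATF1, which gives EA1 its DNA-binding domain, is also a bZIP protein and binds the palindrome TGACGTCA, the ATF/CREB motif, and shortened forms with the core TGACG. Fos is the classical immediate early gene: its promoter carries ATF/CREB elements and a serum response element, a CArG box, at which serum response factor (SRF) binds. A CArG box is written here as CC, then 6 bases that are each A or T, then GG.

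A CArG box lay within 4 of the 20 V5 peaks found within 50 kb of the AP-1 genes, and each box had a TGACG core close to it. Stretches of 30 bases on either side of these boxes are printed because they put both elements at Fos, Fosb and Junb side by side. They were read from GRCm38, the assembly that mm10 names, and capitals mark the CArG box and each TGACG core, which reads CGTCA on the other strand.
Fos promoter, chr12:85473551-85473620, + strand: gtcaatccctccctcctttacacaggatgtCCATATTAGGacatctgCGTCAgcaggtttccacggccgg
Fos downstream, chr12:85486084-85486153, + strand: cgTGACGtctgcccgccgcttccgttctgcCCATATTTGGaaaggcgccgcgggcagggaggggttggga
Fosb promoter, chr7:19310278-19310347, + strand: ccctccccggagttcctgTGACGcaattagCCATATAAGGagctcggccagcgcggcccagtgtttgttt
Junb downstream, chr8:84976594-84976663, + strand: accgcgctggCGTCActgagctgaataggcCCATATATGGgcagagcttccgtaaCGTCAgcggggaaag
At the Fos promoter the box CCATATTAGG was centred 304 bp upstream of the TSS, where the Fos serum response element is known to lie. The nearest TGACG core lay 7 bp from it. Another core within 30 bp, on the other side of the box, is cut by the start of the printed stretch and is unmarked. At Fosb, whose gene runs on the minus strand, the box CCATATAAGG was centred 262 bp upstream of the TSS with a core 7 bp away. In the V5 peak downstream of Fos, the box CCATATTTGG stood 23 bp from the nearest core. In the V5 peak downstream of the coding part of Junb, the box CCATATATGG had cores on both sides, the nearest 15 bp away. These motif searches were made after the sequences had been seen. Of all 10665 V5 peaks, 425 held a CArG box, and in 40 of those, 9.41%, a TGACG core lay within 30 bp of the box.

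The promoters of Fos, Fosb and Junb are shown next because they hold the TGACG core in the window searched. The 250 bases before the RefSeq start of each gene were taken from RefSeq on GRCm38.p6, written in the direction of transcription, and 6 of the 7 genes matched that table. Capitals mark the TGACG core.
Fos promoter, chr12:85473640-85473889, + strand: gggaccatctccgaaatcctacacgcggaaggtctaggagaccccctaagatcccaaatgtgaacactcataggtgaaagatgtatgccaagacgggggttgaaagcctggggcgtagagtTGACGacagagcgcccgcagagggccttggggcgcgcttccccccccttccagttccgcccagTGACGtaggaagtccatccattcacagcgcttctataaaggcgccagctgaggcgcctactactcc
Fosb promoter, chr7:19310046-19310295, - strand: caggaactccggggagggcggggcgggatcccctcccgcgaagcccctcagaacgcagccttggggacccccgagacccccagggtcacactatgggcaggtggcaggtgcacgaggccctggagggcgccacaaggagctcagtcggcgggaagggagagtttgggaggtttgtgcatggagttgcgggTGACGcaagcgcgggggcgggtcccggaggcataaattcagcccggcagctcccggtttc
Junb promoter, chr8:84978749-84978998, - strand: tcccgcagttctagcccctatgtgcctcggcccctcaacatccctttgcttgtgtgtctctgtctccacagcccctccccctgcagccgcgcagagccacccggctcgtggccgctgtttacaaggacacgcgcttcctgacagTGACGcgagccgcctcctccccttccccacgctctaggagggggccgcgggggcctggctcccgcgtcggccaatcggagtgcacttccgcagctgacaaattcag
The Fos promoter held a TGACG core at 129 and at 66 bases before the RefSeq start, counted to the first base of the core. The Fosb promoter held 1 core, at 60 bases before the start, and the Junb promoter held 1, at 106 bases before the start. A TGACG core was present in 3 of the 6 windows of the AP-1 genes, those of Fos, Fosb and Junb, and in 20.8% of 32817 RefSeq promoter windows of 300 bases. The intact palindrome TGACGTCA was present in 1.79% of the windows and the AP1 motif in 5.2%, and neither was found in the 6 windows of the AP-1 genes. A CArG box was found in 0 of the 6 and in 1.63% of all windows, since the boxes at Fos and Fosb lie further upstream than these windows reach. Another sequence of the form TGANNTCA was found in 2 of the 6 windows and in 12.5% of all windows. The Jund window, at chr8:70697489-70697738, ends upstream of the GENCODE TSS at 70698949 and overlaps no V5 peak, so it does not cover the Jund site described next.

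The middle 200 bases of V5 peaks at Jund, Fos and Fosl2 are shown because they span the range from an intact palindrome to no motif at all. They are given on the plus strand of GRCm38, with the ATF/CREB motif, its variants, the AP1 motif, the TGACG core and the CArG box in capitals.
Jund V5 site, chr8:70698716-70698915, + strand: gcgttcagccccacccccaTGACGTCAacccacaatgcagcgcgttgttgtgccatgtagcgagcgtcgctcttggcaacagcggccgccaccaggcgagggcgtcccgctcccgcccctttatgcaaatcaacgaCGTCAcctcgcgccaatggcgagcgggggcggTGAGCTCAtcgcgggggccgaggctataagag
Fos upstream V5 site, chr12:85440476-85440675, + strand: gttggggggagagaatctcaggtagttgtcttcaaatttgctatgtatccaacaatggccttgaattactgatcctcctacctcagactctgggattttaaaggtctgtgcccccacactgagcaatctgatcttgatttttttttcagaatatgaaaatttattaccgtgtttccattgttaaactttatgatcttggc
Fosl2 V5 site, chr5:32133261-32133460, + strand: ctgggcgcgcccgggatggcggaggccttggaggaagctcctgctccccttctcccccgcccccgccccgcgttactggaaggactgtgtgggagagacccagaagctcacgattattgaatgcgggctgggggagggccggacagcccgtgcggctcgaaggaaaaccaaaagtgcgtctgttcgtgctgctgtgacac
The Jund site held the intact ATF/CREB palindrome 210 bp upstream of the GENCODE TSS and downstream of the RefSeq start, the sole copy in the 20 V5 peaks, together with a TGACG core 95 bp upstream and the variant TGAGCTCA. The strongest V5 peak at Fos had its near edge 31.8 kb and its middle 33.3 kb upstream. Its middle and that of the strongest V5 peak at Fosl2 held none of these motifs. Cores lay elsewhere in both peaks, 4 in the Fos peak and 1 in the Fosl2 peak.

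Promoter-associated V5 binding was present at 6 of the 7 AP-1 genes, and the exception was Fosl1. Across all coding genes, 16.6% had a V5 peak within 3 kb of a TSS. An RNAPOL2 peak was promoter-associated at the same 6 genes, against 53.5% of coding genes, and an H3K27ac peak at the same 6 genes, against 58.6%. Peaks of all 3 lists met at the promoters of Fos, Fosb, Fosl2, Jun, Junb and Jund, whereas 15.9% of coding genes had all 3. The V5 peak entered the gene body at the same 6 genes, against 20% of coding genes. Multiple V5 peaks within 3 kb were found at Fos, Fosb, Fosl2 and Junb, 2 at each, a state shared by 1.79% of coding genes. These shares describe the lists, and no test was made because the genes were listed with earlier results of these data known.

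**Figure D1:**
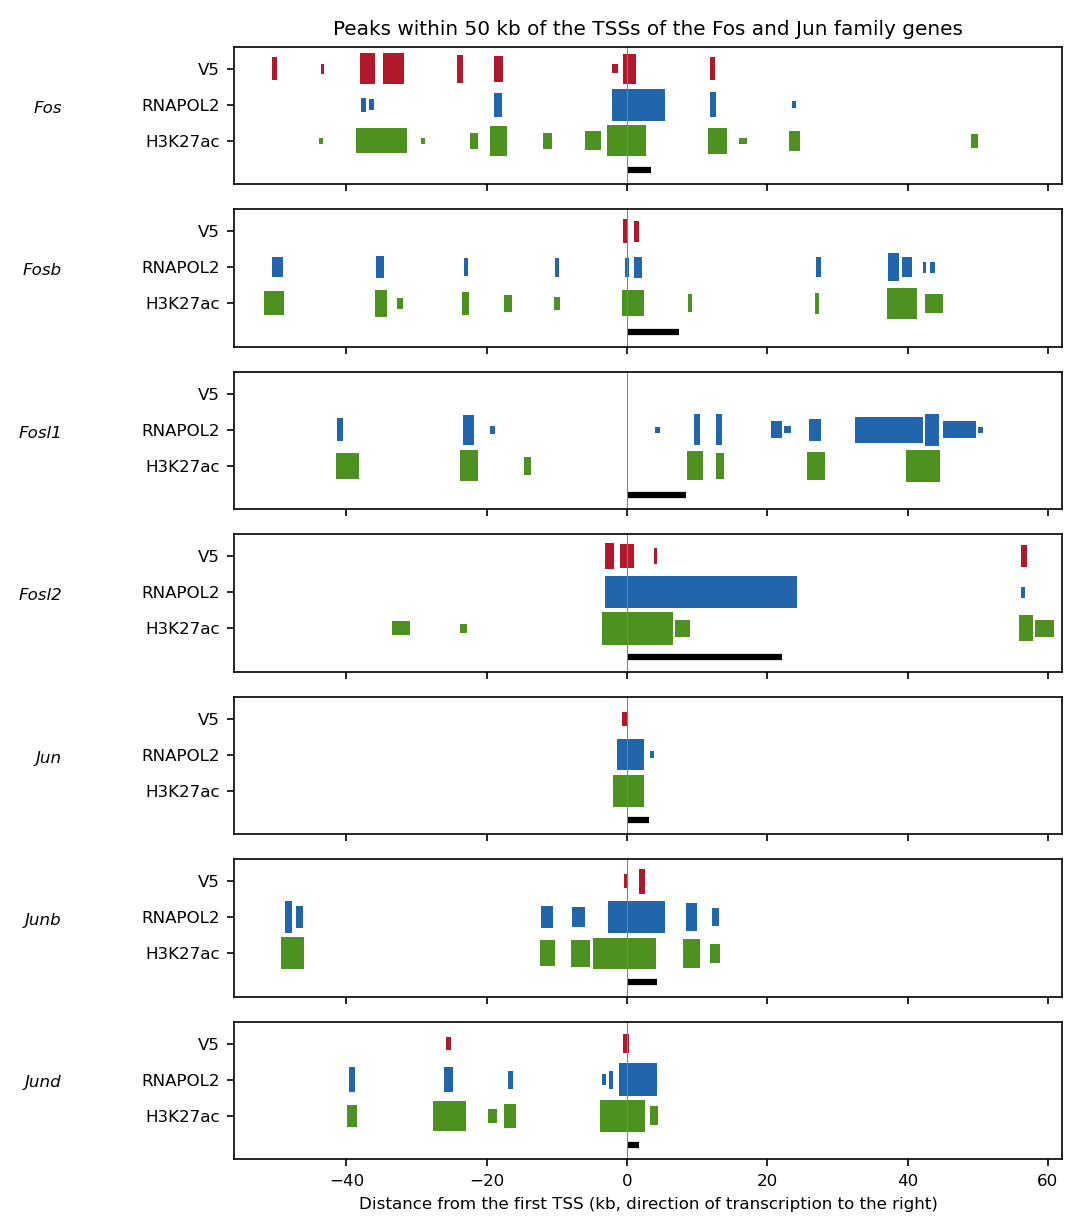
Peaks of the 3 lists plotted against distance from the first TSS in kb, with transcription to the right, 1 panel for each AP-1 gene. Bar length is peak width, bar height grows with the percentile of the score in its list, and the black line is the gene. The 9 V5 peaks of Fos are spread over the locus and the V5 row of Fosl1 is empty.

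Fos, the partner that gives the Fos family its name, had the strongest promoter-associated V5 site of the 7 genes. Its V5 peak at chr12:85473291-85475120 covered the TSS, with its middle base in an intron of the gene. It scored 1149 and ranked 1025 among all V5 peaks. Among coding genes with a V5 promoter peak, the score stood at percentile 88.9. A second, weak V5 peak with a score of 84 lay 1.28 kb upstream of the TSS. The RNAPOL2 peak over Fos scored 4346 and ranked 307, was 7.56 kb wide and covered 100% of the gene. The H3K27ac peak scored 2342, at percentile 85.9 of coding genes with an H3K27ac promoter peak. The best Fos promoter peak of each list stood in the upper part of its list, and the second V5 peak, at percentile 13.6 of all V5 peaks, in the lower part.

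Fosb, which can replace Fos as a partner of Jun proteins, had a lower best V5 score than Fos. Of the bound AP-1 genes, only Fosb had both RNAPOL2 and H3K27ac scores below the median of coding genes with a promoter peak in the list. Its V5 peak over the TSS scored 354, at percentile 68.4, and its other V5 peak, inside the gene and 0.5 kb from the nearest TSS, scored 277. The best RNAPOL2 promoter peak scored 399, at percentile 22.0 of those genes but 57.6 of all RNAPOL2 peaks, and RNAPOL2 peaks covered 19.7% of the gene. The H3K27ac promoter peak scored 807, at percentile 47.7 of those genes and 76.9 of all H3K27ac peaks.

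Fosl2, which encodes Fra-2, had the widest polymerase peak of the family. Its strongest V5 peak, with a score of 523 at percentile 75.6, lay 1.79 kb upstream of the TSS. A V5 peak over the TSS scored 363 and another in an intron, 3.44 kb from the nearest TSS, scored 174. The RNAPOL2 peak scored 3395, extended over 27.4 kb, more than the gene itself, and ranked 25 of 20375 by width. The H3K27ac promoter peak scored 5785, ranked 91 of 27552 by score and was 10.2 kb wide, at rank 126 by width. A noncoding transcript of uncertain status, Gm10463, also starts within the strongest V5 peak, so that site is not assigned to Fosl2 alone.

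Fosl1, which encodes Fra-1, had no promoter-associated peak in any list. The nearest V5 peak was 161750 bp from its TSS, the nearest H3K27ac peak 8160 bp and the nearest RNAPOL2 peak 3670 bp. That RNAPOL2 peak lay in an intron of Fosl1, scored 32 and ranked 19722 of 20375. Within 50 kb of the Fosl1 TSS there were 13 RNAPOL2 peaks, the intronic one included, and 7 H3K27ac peaks, most of them nearest to other coding genes, such as Drap1, Ccdc85b, Fibp and Cfl1.

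Jun, the most potent activator among the Jun proteins, had the lowest best V5 promoter score of the 6 bound genes. Its RNAPOL2 and H3K27ac scores were high. Its single V5 peak, over the TSS, scored 142, ranked 7227 and stood at percentile 38.6. The RNAPOL2 peak scored 3198, at percentile 93.4, and the H3K27ac peak scored 2832, at percentile 90.6. The V5 peak also lay within 3 kb of a TSS of Junos, the antisense transcript that starts beside Jun, and both other peaks covered a start of Junos.

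Junb, a weaker activator that can restrain Jun, was bound at both ends of its coding transcript. The stronger V5 peak, at chr8:84976201-84976950, scored 428, at percentile 72.0. It lay at the 3' end of the coding transcript and over the start of a noncoding transcript of the same gene, and it contains the CArG box shown above. The V5 peak over the coding TSS scored 149, less than the downstream one. The RNAPOL2 peak scored 6883, ranked 91 of 20375, at percentile 99.2 of coding genes with such a peak, and covered 100% of the gene. It also lay within 3 kb of a TSS of the coding gene Prdx2. The H3K27ac peak scored 2305, at percentile 85.6.

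Jund, the member usually transcribed at a steady level, had the highest RNAPOL2 score of the family and a moderate V5 score. Its V5 peak over the TSS at chr8:70698421-70699210 scored 218, at percentile 54.5. The RNAPOL2 peak scored 18012 and ranked 7 of 20375, and only 1 coding gene had a higher best promoter score. The H3K27ac peak scored 4721, at percentile 98.3. An antisense transcript, Gm11175, starts within 3 kb of the V5 peak and within the RNAPOL2 peak, and the lists carry no strand. The H3K27ac peak also covers a start of Gm11175, and both it and the RNAPOL2 peak lie within 3 kb of a TSS of the coding gene Iqcn.

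The order of the genes thus differed between the lists. By V5 score the promoters ran Fos, Fosl2, Junb, Fosb, Jund and Jun, and by RNAPOL2 score they ran Jund, Junb, Fos, Fosl2, Jun and Fosb. By H3K27ac score the order was Fosl2, Jund, Jun, Fos, Junb and Fosb. With 1 list per antibody, whether neighbours in these orders differ cannot be judged.

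**Figure D2:**
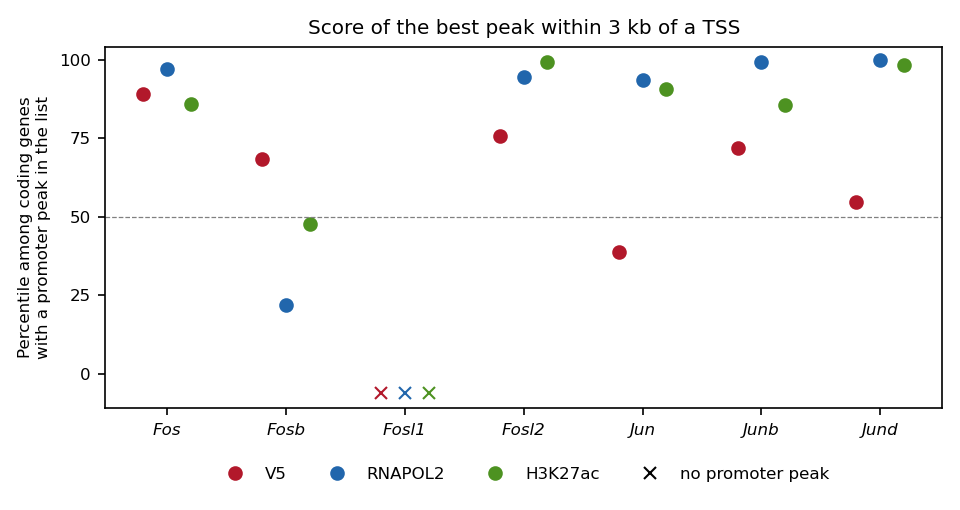
Percentile of the best promoter-associated score of each AP-1 gene among coding genes with such a peak in the same list (y axis), with crosses for no peak and a dashed line at 50. V5 points run from 38.6 at Jun to 88.9 at Fos, and Fosb is the only bound gene with both RNAPOL2 and H3K27ac below the line.

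Away from the promoters, most V5 peaks belonged to Fos. Within 50 kb of a TSS, Fos had 9 V5 peaks, Fosl2 had 4, Fosb, Junb and Jund had 2 each, Jun had 1 and Fosl1 had 0. At least 1 such peak was present at 6 of 7 AP-1 genes and at 41.3% of coding genes. As many as 9 were present at 62 coding genes, 0.283%, and the median over coding genes was 0. Of the 20 peaks, 17 had the TSS of the AP-1 gene as the nearest coding TSS, and 10 lay within 3 kb of it. Of the other 10, 7 were at Fos. When starts of any gene were counted, noncoding ones included, 13 of the 20 were promoter-associated and 7 distal, whereas 40.6% of all V5 peaks were promoter-associated. The 50 kb windows are centred on promoters, so these shares are not comparable.

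**Figure D3:**
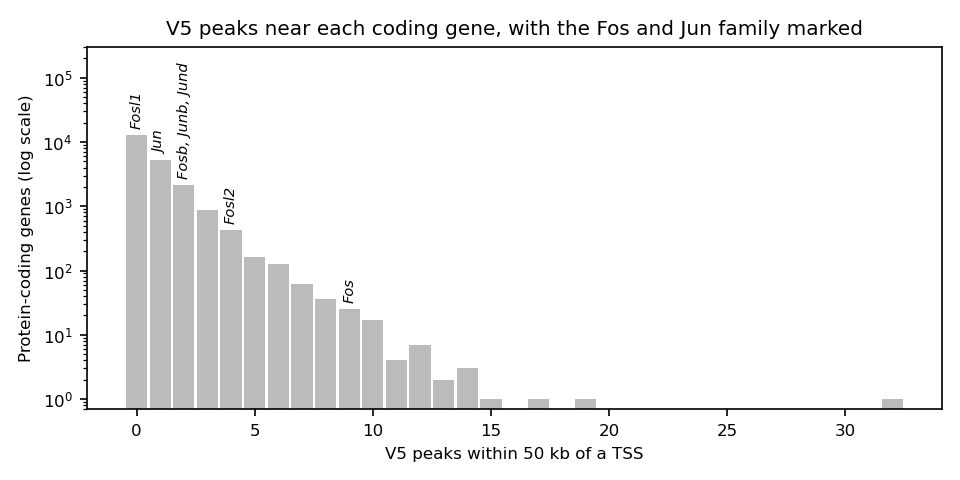
Number of V5 peaks within 50 kb of a TSS (x axis) against the number of protein-coding genes with that number (y axis, log scale), with the AP-1 genes written above their bars. Fos stands at 9, where few coding genes are found, and Fosl1 at 0.

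The highest V5 scores of the family lay outside the promoters of the AP-1 genes. At Fos, the peaks 31.8 kb and 36.0 kb upstream scored 1843 and 1618, at ranks 520 and 626 of 10665, both above the promoter peak at rank 1025. These 3 were the only peaks of the 20 in the upper decile of V5 scores. The site 23.4 kb upstream scored 769 and the site 17.7 kb upstream scored 483. The other Fos sites away from the promoter were weaker, with a score of 326 at 49.9 kb upstream, 94 at 43.1 kb upstream and 316 at 10.8 kb downstream of the nearest TSS. A long noncoding RNA, Gm40477, starts within the peak at 36.0 kb and within 3 kb of the strongest peak. The site 49.9 kb upstream had Tmed10 as its nearest coding gene.

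H3K27ac and RNAPOL2 divided these Fos sites. The sites 36.0 and 31.8 kb upstream fell under a single H3K27ac peak of 7180 bp with a score of 659, and RNAPOL2 peaks, with scores of 98 and 56, met only the former. The sites 17.7 kb upstream and 10.8 kb downstream carried both marks, with RNAPOL2 scores of 657 and 811 and H3K27ac scores of 1623 and 825. The weak site 43.1 kb upstream met an H3K27ac peak with a score of 34 and no RNAPOL2 peak. The sites 49.9 and 23.4 kb upstream carried neither. Across all AP-1 genes, 16 of the 20 V5 peaks, 80.0%, overlapped both marks, 2 overlapped H3K27ac alone and 2 neither. Of all V5 peaks 41.6% overlapped both. Among promoter peaks the shares were 12 of 13 near the AP-1 genes and 76.0% in the whole list, and among distal peaks 4 of 7 and 18.0%.

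When H3K27ac peaks at most 12 kb apart were joined, the region at Fos spanned 80.9 kb, from chr12:85417571-85498450, with 13 H3K27ac peaks. It held 11 V5 peaks, and 6 of 16205 joined regions held at least as many. Among regions of at least 3 H3K27ac peaks, 61.6% held a V5 peak and the median was 1. The count at Fos depended on the joining distance and fell to 3 V5 peaks at 6 kb. The regions at Fosb and Jund spanned 45.2 and 44.3 kb with 2 V5 peaks each, and that at Junb spanned 25.6 kb with 2. These 3 regions also took in promoter peaks of neighbouring genes, among them Ercc1, Lsm4 and Hook2. With Fos, 4 of the 7 AP-1 genes thus lay within 3 kb of a region of at least 3 H3K27ac peaks, against 14.4% of coding genes. Fosl2 lay in a region of 12.5 kb with 3 V5 peaks, and Jun in a lone H3K27ac peak of 4.41 kb with 1.

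At the other genes, sites away from the promoters were few. Fosl2 had a V5 peak 45.5 kb downstream of its nearest TSS that scored 326 and carried both marks. The nearest coding TSS to this peak was that of Plb1. The Fosl2 TSS used here was that of a noncoding, retained-intron transcript, and the peak counts within 50 kb only through it. From the first Fosl2 TSS, the middle of the peak was 56.6 kb away. The peak 25.2 kb upstream of Jund scored 136 and lay on the start of Lsm4. Fosb, Jun and Junb had no V5 peak within 50 kb outside their promoters.

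The motif content of the 20 V5 peaks was compared with that of all V5 peaks, in whole peaks and on both strands. The TGACG core was found in 17 of 20, 85.0% with a Wilson interval of 64.0 to 94.8%, against 70.9% of all V5 peaks. The intact palindrome was found in 1 of 20, 5.0%, against 8.51%, and a variant TGANNTCA in 9 of 20, 45.0%, against 40.3%. The AP1 motif was present in 3 of 20, 15.0%, against 26.0%, at Fosl2 over the TSS and 45.5 kb downstream, and at Fos 49.9 kb upstream. Strings of TGA or TCA repeats, of more than 4 units, were present in 2 of 20, 10%, against 10.2%. For each of these motifs the share in all V5 peaks lay within the Wilson interval (95%) of the 20. A CArG box was present in 4 of 20, 20% with an interval of 8.07 to 41.6%, against 3.98% of all V5 peaks. In the middle 200 bp it was present in 3 of 20, 15.0% with an interval of 5.24 to 36.0%, against 1.0%. This motif was chosen after the sequences had been seen, neighbouring peaks at 1 gene are not independent and the intervals cover counting error only, so the difference is a description. The core TGACG is part of the intact palindrome, and the peaks near the AP-1 genes were wider, with a median of 800 bp against 710 bp.

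**Figure D4:**
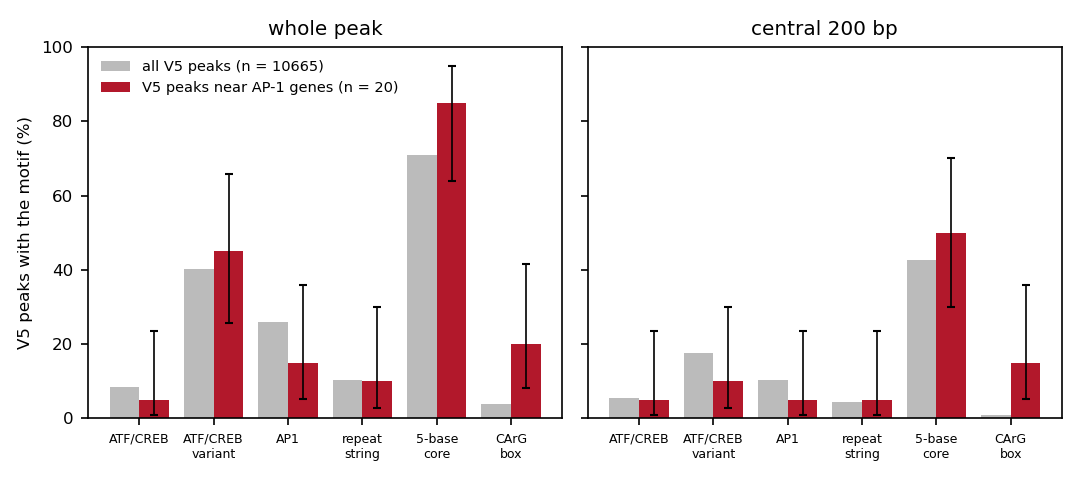
Share of V5 peaks with each motif (y axis, %) in the 20 peaks within 50 kb of the AP-1 genes (red, with 95% Wilson intervals for counting error) and in all 10665 V5 peaks (grey). Whole peaks are on the left and the middle 200 bp on the right. The CArG box is the only motif for which the grey bar ends below the interval, in both panels.

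The other genes of the pathway were taken from lists of dimer partners, upstream regulators and targets. Among 11 bZIP partners and relatives, 5 had a promoter-associated V5 peak, and all 5 also had both other marks, against 16.6% and 15.9% of coding genes. They included Jdp2, a repressive partner of Jun, with a V5 score of 84, and the Maf family genes Mafk with 344, Maff with 207 and Maf with 112. Among 20 upstream genes, 7 had a V5 promoter peak, 19 an RNAPOL2 peak and 20 an H3K27ac peak, where the shares of coding genes were 16.6%, 53.5% and 58.6%. The strongest was at Fbxw7, which encodes a ubiquitin ligase subunit that marks Jun for degradation, with a V5 score of 2645 at rank 289. Srf itself had a V5 score of 84, and its partners Elk3 and Elk4 had 277 and 218. The kinase genes Mapk8, which encodes a Jun N-terminal kinase, and Map2k4 had 196 and 142. Among 20 AP-1 target genes found as coding genes, 2 had a V5 promoter peak. These were Il6, a cytokine gene, with 665 and Plau, which encodes urokinase, with 160, whereas 14 had an RNAPOL2 and 15 an H3K27ac promoter peak. The shares of coding genes were 16.6%, 53.5% and 58.6%, and no difference from them was tested.

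By the percentile of the best promoter peak among all peaks of each list, the coding gene nearest to Fos was Kctd20, at a distance of 0.618 percentile points over the 3 lists, followed by Tmem39a at 2.69. Fosl2 was nearest to Stat3, at 0.656, and Klf13. Jun was nearest to Klf10, at 0.952, and Clk2, and Jund to Dnaja1, at 0.72, and Btg1. Junb was nearest to Gm47283 and Hspb8, and Fosb to Yipf6 and Clec18a.

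Markers of other cell types that the tumours could hold were read in the same way. None of 6 muscle genes had a promoter-associated peak in any list. H3K27ac promoter peaks were present at 4 of 4 leukocyte genes and 3 of 3 endothelial genes, with RNAPOL2 at 1 of each and V5 at none, beside 58.6%, 53.5% and 16.6% of coding genes. Their part in the RNAPOL2 and H3K27ac peaks at the AP-1 genes was not tested. Of 7 melanocytic genes that mark human clear cell sarcoma, 2, Mitf and Pmel, had RNAPOL2 and H3K27ac promoter peaks, Dct had a V5 promoter peak alone, and Sox10, Mlana, Tyr and Tyrp1 had none. The lists record called peaks, and transcript levels were not analysed here.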

How the data were processed

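Tumours of the EWSR1::ATF1 mouse model were cross-linked by the authors and immunoprecipitated with anti-V5, anti-RNAPOL2 or anti-H3K27ac. According to the labels and the published methods, the authors mapped reads to mm10 with BWA 0.7.10-r789, peaks were called with MACS2 2.2.6 against Input, with the broad option for H3K27ac, and denylisted regions were removed. The deposited values are 3 lists of peaks, 1 per antibody, each with a whole-number score from the authors whose scale is not stated. The methods name more V5 and RNAPOL2 samples than the 4 labelled for each, so which samples entered a list is not known. Replicates were averaged into enrichment tracks by the authors, but how they were combined for the peak lists is not stated. All coordinates in the lists lay on a 10-bp grid, with peaks of at least 500 bp.

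TSSs came from GENCODE vM21. Peaks overlapped a window when they shared 1 bp. The distance of a peak ran from its nearest edge to the nearest TSS of the gene. Peaks within 3 kb of any TSS were promoter-associated and the others distal. Percentiles of a gene's best promoter score were taken among coding genes with such a peak. H3K27ac peaks at most 12 kb apart were joined. Motifs were searched on both strands of GRCm38. Strings were more than 4 TGA or TCA units with gaps of at most 5 bp. The genes, gene lists and windows were chosen with earlier results of these data known. Genes named were the 7 AP-1 genes, the coding genes nearest to their best V5 peaks, listed genes with a V5 promoter peak, and the 2 genes nearest in the 3 percentiles; further neighbours were named after their values were seen. Of 21 target genes, Mmp1a is not a coding gene in the annotation and was left out. No test was made. Overlap and motif functions were tested on simulated data. Python 3.11.15, pandas 2.3.3, statsmodels 0.14.6 and pysam 0.24.0 were used. Some listed genes and sequences are not reported here.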

Additional observations from a re-analysis of the deposited data

How the results depend on the processing

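Of 39 alternative values, 32 kept their main value within the limits set, a factor of 1.5 for counts and the Wilson interval for shares. The number of AP-1 genes with a promoter-associated peak remained 6 in all lists with windows of 1 kb, coding or first TSSs, or the middle base of the peak. With 5 kb, RNAPOL2 reached 7, since the intronic peak of Fosl1 was then counted. With the upper 50% of scores, V5 was left at 4. The 20 V5 peaks within 50 kb ranged from 14 at 25 kb to 27 at 100 kb. In the upper 50% of scores, which holds about 50% of all V5 peaks by construction, 13 were left. Shares of coding genes were not computed for these other settings, so whether the counts moved with the background cannot be judged. In the middle 200 bp, the share with a variant TGANNTCA fell from 45.0 to 10% (40.3 to 17.7% in all V5 peaks), with the AP1 motif from 15.0 to 5.0% (26.0 to 10.4%) and with TGACG from 85.0 to 50% (70.9 to 42.6%), windows being shorter. Among the 7 distal peaks, TGACGTCA was found in 0.0%, with a Wilson upper bound of 35.4%, and in 5.51% of all distal V5 peaks. AP-1 genes in joined regions of at least 3 H3K27ac peaks numbered 4 at 12 kb, 2 at 6 kb and 5 at 20 kb (14.4, 6.81 and 22.7% of coding genes), and V5 peaks in the region at Fos 11, 3 and 11. The searches for TGACG and the CArG box were added after seeing the data. No paired analysis was possible because the lists hold no values per sample, and leaving out a replicate was not possible for the same reason. The published methods give an approximate depth per sample, but the lists hold no read counts at each site. A missing peak, as at Fosl1, thus cannot be told apart from binding below the threshold.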
